A study of Mus musculus with 25 samples.

Results

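The miRNA content of liver small extracellular vesicles at 14 months was set against that at 6 months. These are 10 of the 25 libraries of the series, 5 at 6 months (mice 11 to 15) and 5 at 14 months (mice 21 to 25), chosen by the age in their titles. Both groups were wild-type C57BL/6J mice with 1 library per mouse, and the labels name no treatment. Per the labels, liver tissue was dissociated with an enzyme kit made for human tumours, ultracentrifugation followed, and QIAseq miRNA libraries were run on a NovaSeq. The other libraries came from mice of 1 week, 6 weeks and 12 months, 5 each. The labels say that both sexes were equally represented but not which mouse was which, and the field for batch repeats the age, so handling that differed between the ages cannot be told apart from age.

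Small extracellular vesicles are membrane-bound particles that cells release, and they carry short RNAs of the cells they come from. A miRNA lowers the output of messenger RNAs that pair with its seed, the stretch from base 2 to base 8, so miRNAs with the same seed share targets. Liver vesicles carry mostly hepatocyte miRNAs, with contributions from endothelial, stellate, bile duct and blood cells. In a bulk preparation, fewer vesicles of a cell type and fewer copies of its miRNAs per vesicle cannot be told apart, and neither can vesicle RNA and RNA from broken cells.

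The liver origin was visible in all 10 libraries. miR-122-5p, the main hepatocyte miRNA, held 54.4% to 62.0% of the counts in them, and the hepatocyte list as a whole held 68.4% to 73.9%. Library totals were higher on average at 14 months. At 6 months they averaged 1413686 ± 603587 counts (SD, n = 5), and at 14 months 2457390 ± 993097 (SD, n = 5), a ratio of 1.74. All 5 libraries of 14 months were deeper than 4 of the 5 of 6 months, and mouse 14 was the exception. No count in a library means a level below 3 counts, which is 1.01 to 2.95 counts per 1000000 (CPM) in these libraries. CPM values below are scaled with TMM factors (edgeR's correction for composition), means carry the SD over 5 mice, and log2 differences are 14 months minus 6 months with their SE.

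The sequences below belong to the miRNAs that led the comparison, as RefSeq gives them for GRCm38.p6, 5′ to 3′ with the seed in capitals. First come the 3 miRNAs of the Mir183-Mir96-Mir182 cluster, which are cut from 1 stretch of chromosome 6 and have related but unequal seeds.
miR-182-5p: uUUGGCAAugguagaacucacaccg
miR-96-5p: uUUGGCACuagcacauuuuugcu
miR-183-5p: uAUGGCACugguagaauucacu
The 3 miR-29 guide strands share 1 seed.
miR-29b-3p: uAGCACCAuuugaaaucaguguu
miR-29a-3p: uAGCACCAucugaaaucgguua
miR-29c-3p: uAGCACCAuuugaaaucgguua
The 2 miR-3473 entries share their seed and an unbroken run of 18 bases, and 9 of these also occur in miR-5128.
miR-3473b: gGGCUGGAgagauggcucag
miR-3473e: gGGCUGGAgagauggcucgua
miR-5128: cAAUUGGGgcuggcgagauggcu
Single members of other families were also among the leading miRNAs or had levels that did not overlap between the ages.
miR-214-3p: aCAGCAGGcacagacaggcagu
miR-500-3p: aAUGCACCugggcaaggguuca
miR-30c-5p: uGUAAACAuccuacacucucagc
miR-3065-5p: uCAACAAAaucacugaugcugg
miR-1195: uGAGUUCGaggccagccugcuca

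Across all miRNAs, no entry passed the test between 14 and 6 months. The table lists 1493 entries, 1095 with a miRNA name and 398 called unconservative with a pair of numbers, a term the labels do not explain. Of these, 391 had enough counts over the 25 libraries to be tested, 339 names and 52 unconservative entries. In edgeR's quasi-likelihood test with Benjamini-Hochberg adjustment, 0 (0%) had an adjusted p under 0.05. DESeq2 also called 0. At an unadjusted p under 0.05, edgeR gave 30 entries (7.67%), 13 higher and 17 lower at 14 months, and DESeq2 gave 32. All 13 of the higher entries were miRNA names, whereas 10 of the 17 lower ones were unconservative. The count at an unadjusted p under 0.05 moved with single libraries, to 17 without mouse 23 or mouse 25, to 45 without mouse 22 and to 48 without mouse 21. The smallest adjusted p was 0.281, for miR-182-5p. The filter drew on all 25 libraries, and 4 of the 391 tested entries had no count in the 10 compared. Filtered and fitted on those 10 alone, 238 entries were tested, 15 of them unconservative. Of the 238, 0 passed and 24 had an unadjusted p under 0.05, and miR-182-5p had an edgeR adjusted p of 0.142.

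The width of the intervals shows what size of difference the comparison could have missed. Among 111 miRNAs with a mean of at least 100 CPM, the 95% interval of the log2 difference lay inside a 2-fold change in either direction for 96. Below 100 CPM this held for 58 of 276. Each SE was the absolute log2 difference over the square root of the test's F statistic, which is unsteady for differences near 0. At levels below the floor, miR-543-3p (0.65 and 0.78 CPM) had an SE of 0.38 and miR-377-3p (0.75 and 0.64 CPM) one of 0.90. Both were named after their values were seen. The 58 include miR-543-3p, so near the floor such an interval does not exclude a larger difference. Over the tested entries the median log2 difference was 0.019, and scaling by library totals alone moved it to -0.10. That median includes the unconservative entries. Over the 339 miRNA names it was 0.06, with 200 higher and 136 lower, and over the 111 entries of at least 100 CPM it was 0.12, with 81 higher and 30 lower. Each direction below is relative to the TMM scaling, and small differences of abundant miRNAs depend on that choice.

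**Figure D1:**
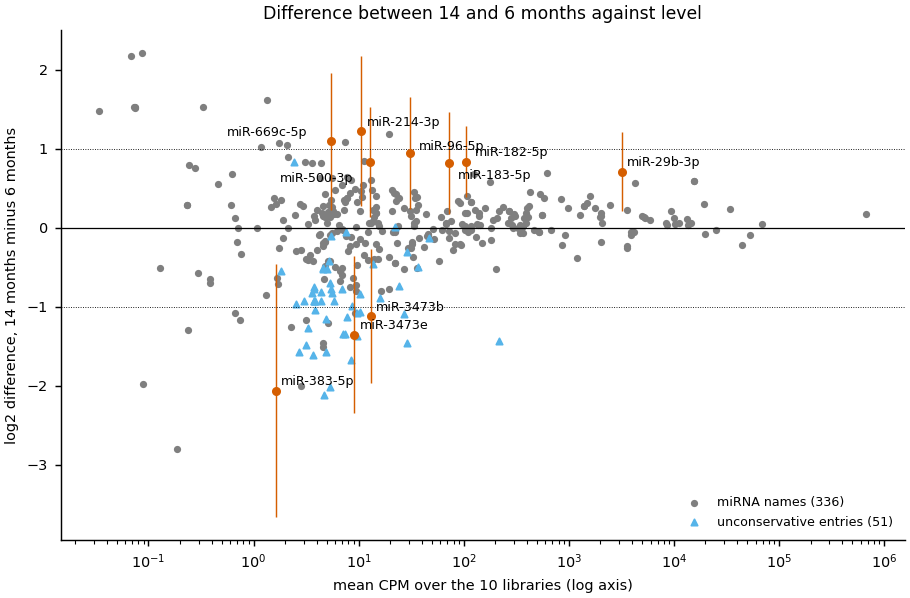
Log2 difference between 14 and 6 months (vertical axis) against mean level in CPM over the 10 libraries (log axis) for the 387 tested entries with counts. Orange points with 95% intervals are the 10 miRNAs with the smallest unadjusted p, the dotted lines mark a 2-fold difference, and the spread narrows above 100 CPM, while 49 of the 51 unconservative entries shown (triangles) lie below 0.

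The Mir183-Mir96-Mir182 cluster gave 3 of the 10 smallest p-values, all with higher means at 14 months. The cluster lies on the minus strand of chromosome 6 (GRCm38.p6, 30165918 to 30169737, 3820 bases), outside annotated host genes on that strand. It is known for its role in sensory organs and, in liver, as a target of the sterol regulator SREBP-2. miR-182-5p, at chr6:30165918-30165992, measured 73.7, 91.4, 69.3, 87.6 and 56.7 CPM in mice 11 to 15. In mice 21 to 25 it measured 118.8, 156.4, 141.2, 142.1 and 119.0 CPM. Every 14-month library was therefore above every 6-month library, and also above all 20 libraries of the other 4 ages, whose highest value was 107.8 CPM. The comparison with all 20 was made only for this cluster and miR-29b-3p, so its share over all tested entries is not known. The means were 75.7 ± 14.1 and 135.5 ± 16.3 CPM, a log2 difference of 0.84 ± 0.22 (edgeR adjusted p = 0.281). Leaving out 1 mouse at a time gave log2 differences of 0.76 to 0.98, and none brought the adjusted p under the threshold.

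The neighbours of miR-182-5p overlapped between the ages. miR-183-5p (chr6:30169668-30169737) measured 53.0, 79.3, 46.5, 61.0 and 20.2 CPM in mice 11 to 15, and 85.9, 123.6, 112.8, 67.9 and 71.7 CPM in mice 21 to 25. The high value of mouse 12 at 6 months lay above the values of mice 24 and 25. Its log2 difference was 0.82 ± 0.31 (edgeR adjusted p = 0.594). miR-96-5p (chr6:30169446-30169551) measured 21.6, 12.1, 24.6, 27.1 and 19.2 CPM in mice 11 to 15, against 40.3, 37.8, 68.7, 26.8 and 29.1 CPM in mice 21 to 25. Mouse 23 was the highest, and mouse 24 lay just under mouse 14, with a log2 difference of 0.94 ± 0.35 (edgeR adjusted p = 0.594). Summed over the 3 miRNAs, the 14-month libraries held 219.8 to 322.7 CPM and the 6-month libraries 96.1 to 182.7 CPM. The sum includes miR-182-5p, so it is not a separate observation. Of the other ages, mouse 19 at 12 months reached 215.8 CPM and mouse 4 at 1 week 202.6 CPM.

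Library depth was set beside this result, because the 14-month libraries were deeper. miR-182-5p passed the threshold once log2 library total was a covariate in the model of all 25 libraries (log2 difference 1.02, edgeR adjusted p = 0.0343), the only entry to do so. In the 20 adult libraries with the same covariate it also passed (0.93, edgeR adjusted p = 0.0251), again as the only entry. Outside the comparison, the 10 libraries of 6 weeks and 12 months gave miR-182-5p a log2 slope of -0.28 ± 0.14 per doubling of the library total. This slope did not pass (edgeR adjusted p = 0.15). With all libraries thinned to 641579 counts, its log2 difference was 0.92 (edgeR adjusted p = 0.355).

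**Figure D2:**
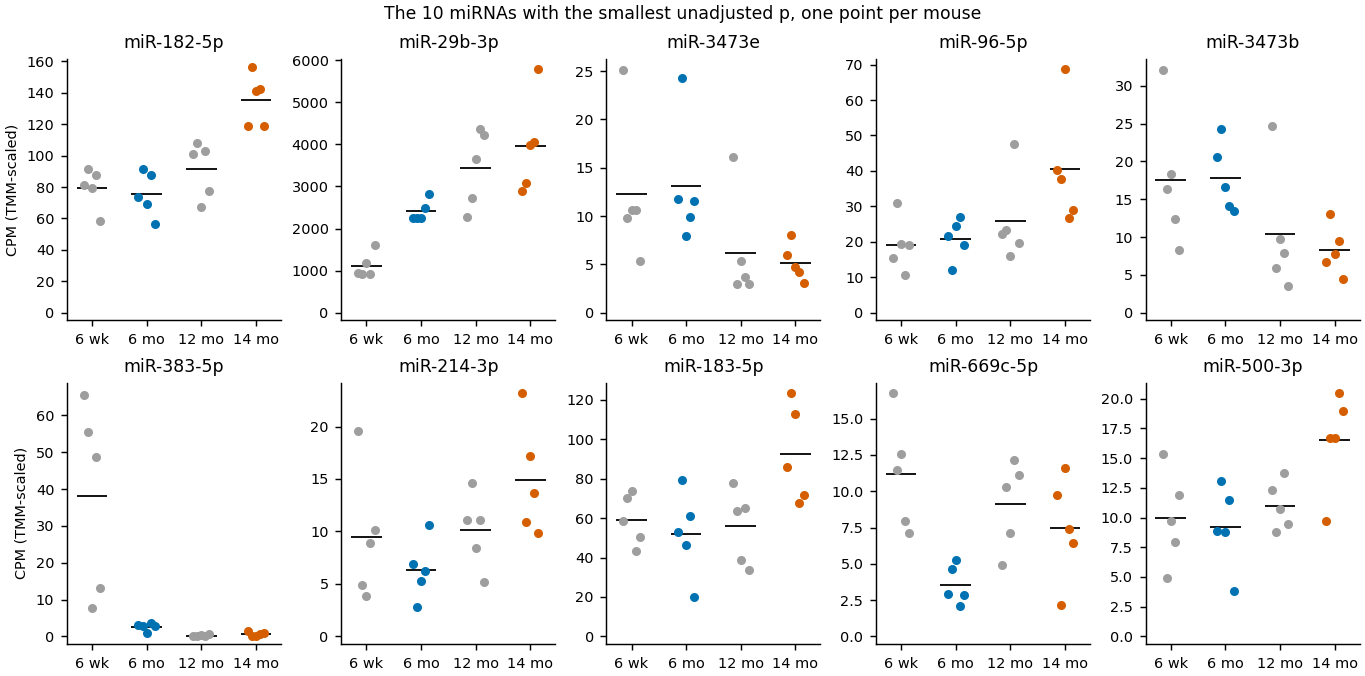
TMM-scaled CPM (vertical axes, each from 0) of the 10 miRNAs with the smallest unadjusted p, 1 point per mouse, at 6 weeks, 6, 12 and 14 months, with a bar at the mean of 5. Blue and orange points are the ages compared, and only miR-182-5p has all 5 orange points above every other point shown.

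The miR-29 guide strands, which repress collagen messenger RNAs and are often reported at higher levels in ageing tissues, had higher means at 14 months. miR-29b-3p is cut from 2 precursors, at chr6:31063023-31063093 and, in an exon of the noncoding gene A330023F24Rik, at chr1:195037040-195037120. It measured 2248, 2254, 2246, 2496 and 2822 CPM in mice 11 to 15, and 2880, 3072, 3979, 4052 and 5780 CPM in mice 21 to 25. The ages did not overlap, although mouse 21 lay close to mouse 15. The log2 difference was 0.71 ± 0.24 (edgeR adjusted p = 0.594). miR-29a-3p averaged 12407 ± 3100 and 18730 ± 6927 CPM, a log2 difference of 0.59 ± 0.30 (edgeR adjusted p = 0.594), and 3 of 5 libraries of 14 months lay above all of 6 months. The counts of miR-29c-3p were within 0.3 log2 units of those of miR-29a-3p in each library, so both entries are 1 observation.

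The levels of these miR-29 strands also went with library depth in libraries outside the comparison. At 6 weeks and 12 months, miR-29a-3p had a log2 slope of 0.63 ± 0.10 per doubling of the library total (edgeR adjusted p = 0.00354) and miR-29b-3p one of 0.47 ± 0.08 (edgeR adjusted p = 0.0047). With library total as a covariate, the log2 difference between 14 and 6 months was 0.27 ± 0.18 for miR-29b-3p and 0.05 ± 0.21 for miR-29a-3p. The passenger strands showed no common direction. miR-29c-5p differed by -0.13 ± 0.24, miR-29a-5p by 0.01 ± 0.43 and miR-29b-2-5p by 0.35 ± 0.64 on the log2 scale. The 6 tested entries of the family had a median of 0.47, against 0.06 over all tested miRNA names, and 5 of 6 had a positive difference. This median and count take miR-29a-3p and miR-29c-3p separately. With that pair taken once, the middle value is the 0.35 of miR-29b-2-5p. With library total as a covariate the family's median was 0.01.

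Both miR-3473 entries had lower means at 14 months. miR-3473b (chr10:41670739-41670793) measured 20.6, 24.2, 16.7, 14.1 and 13.5 CPM in mice 11 to 15, and 6.72, 13.1, 7.72, 9.47 and 4.40 CPM in mice 21 to 25. The highest 14-month library, mouse 22, lay just below the lowest of 6 months, mouse 15. Its log2 difference was -1.12 ± 0.41 (edgeR adjusted p = 0.594). miR-3473e, within an intron of the ribokinase gene Rbks at chr5:31667231-31667340, ranged from 7.89 to 24.2 CPM at 6 months and from 3.04 to 8.00 CPM at 14 months, with a log2 difference of -1.35 ± 0.48 (edgeR adjusted p = 0.594).

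The raw counts of these entries did not scale with the libraries. miR-3473b had 14 to 27 counts in the 6-month libraries and 9 to 18 in the deeper 14-month libraries. Outside the comparison its log2 slope per doubling of the library total was -1.02 ± 0.25 (edgeR adjusted p = 0.0173), and that of miR-3473e was -1.02 ± 0.30 (edgeR adjusted p = 0.0314). With library total as a covariate, the difference of miR-3473b was -0.69 ± 0.38 and that of miR-3473e -0.81 ± 0.43.

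Of the remaining leading miRNAs, 3 had higher means at 14 months and 1 a lower mean. miR-214-3p, which stellate cells and fibroblasts express from an exon of Dnm3os (chr1:162223368-162223477), measured 6.88, 2.80, 5.26, 6.25 and 10.6 CPM in mice 11 to 15, and 23.2, 10.9, 17.2, 13.7 and 9.80 CPM in mice 21 to 25. Only mouse 25 fell below the highest 6-month library, mouse 15, and the log2 difference was 1.22 ± 0.46 (edgeR adjusted p = 0.594). miR-500-3p, in an intron of the chloride transporter gene Clcn5 (chrX:7237683-7237774), measured 3.84 to 13.1 CPM at 6 months and 9.71 to 20.5 CPM at 14 months. For miR-500-3p, 4 of 5 libraries of 14 months lay above the highest of 6 months, with a log2 difference of 0.84 ± 0.34 (edgeR adjusted p = 0.594).

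miR-669c-5p and miR-383-5p rested on few counts. miR-669c-5p, from the large miRNA cluster in an intron of the imprinted gene Sfmbt2, had 3, 5, 6, 4 and 3 counts in mice 11 to 15 and 13, 3, 27, 14 and 19 in mice 21 to 25, with a log2 difference of 1.10 ± 0.42 (edgeR adjusted p = 0.594). miR-383-5p had 17 counts over the 5 libraries of 6 months and 6 over those of 14 months, at or below the floor of 3 counts in all 5 of the latter and in 4 of the former. Its fitted log2 difference of -2.06 ± 0.78 (edgeR adjusted p = 0.594) depends on how so few counts are handled.

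For 4 miRNAs (1.02% of the tested entries) the 5 libraries of 14 months lay above all 5 of 6 months, and for 3 (0.767%) they lay below. The 4 above were miR-182-5p, miR-29b-3p, miR-30c-5p and miR-3065-5p. miR-30c-5p, a miR-30 family member reported to lower microsomal triglyceride transfer protein, measured 2177, 2181, 2188, 2178 and 2354 CPM in mice 11 to 15, and 2490, 2364, 2553, 2402 and 3691 CPM in mice 21 to 25. The 6-month values lay very close together, mouse 22 was only just above mouse 15, and mouse 25 set much of the mean difference, 0.29 ± 0.15 on the log2 scale (edgeR adjusted p = 0.661). With library total as a covariate it was 0.15 ± 0.16.

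The other non-overlapping miRNAs were scarce. miR-3065-5p (chr11:120014767-120014853) measured 4.69 to 12.1 CPM at 6 months and 12.4 to 17.9 CPM at 14 months, a log2 difference of 0.84 ± 0.57 (edgeR adjusted p = 0.747). The 3 below were miR-3473b, miR-1195 and miR-5128. miR-1195 had 4 to 13 counts per library at 6 months and 2 to 8 at 14 months, and miR-5128 had 6 to 16 and 2 to 12. On the log2 scale miR-1195 differed by -1.46 ± 0.59 and miR-5128 by -1.51 ± 0.61 (edgeR adjusted p = 0.594 for both). miR-1195, miR-3065-5p and miR-5128 were named after their values were seen.

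The most abundant miRNAs differed little. miR-122-5p held 56.8% ± 1.73 of counts at 6 months and 58.4% ± 2.49 at 14 months (exact permutation p = 0.262, adjusted p = 0.458), and its log2 difference in CPM was 0.17 ± 0.12. miR-148a-3p, which targets the LDL receptor messenger RNA, averaged 67636 ± 13440 and 69625 ± 6734 CPM, a log2 difference of 0.04 ± 0.17 with a 95% interval of -0.31 to 0.39. For miR-192-5p, a hepatocyte miRNA, the log2 difference was -0.09 ± 0.20. miR-26b-5p differed by 0.24 ± 0.18, and miR-126a-3p, an endothelial miRNA hosted by Egfl7, by -0.22 ± 0.16. The 95% intervals of these 5 stayed inside a 2-fold change.

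miRNAs of lipid and cholesterol metabolism and of ageing were counted next, as the title of the series names both subjects. Of 28 tested miRNAs of the lipid list, 0 passed, 23 had a positive and 5 a negative difference, and the median was 0.21. Scaled by library totals alone, 16 were positive and 12 negative, with a median of 0.09. The 3 with an unadjusted p under 0.05, near the 7.67% of all tested entries, were the members of the Mir183-Mir96-Mir182 cluster. Of 18 tested miRNAs on the ageing and senescence list, 0 passed, 14 had a positive and 4 a negative difference, and the median was 0.56, against 0.06 over all tested miRNA names and 0.12 over entries of at least 100 CPM. It was 0.43 with library totals alone and 0.22 with library total as a covariate. The 5 of the 18 with an unadjusted p under 0.05 (7.67% over all tested entries) were the same cluster, miR-29b-3p and miR-146b-5p. Both lists were chosen with earlier results of these data known, and both hold that cluster. Their medians are therefore not independent of the leading miRNAs, and the ageing list also takes miR-29a-3p and miR-29c-3p separately. miR-146b-5p, which dampens inflammatory signalling, averaged 96.1 ± 36.3 and 154.9 ± 54.5 CPM (log2 difference 0.68 ± 0.29, edgeR adjusted p = 0.594), and was named after its values were seen.

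Some abundant members of those lists, miR-21a-5p and miR-146a-5p among them, varied widely between mice. miR-21a-5p, a miRNA of growth and fibrosis, measured 13380, 11850, 21680, 20100 and 19620 CPM in mice 11 to 15, and 9992, 22340, 33870, 25810 and 14800 CPM in mice 21 to 25. Both the lowest and the highest value came from 14-month libraries, and the log2 difference was 0.30 ± 0.27. miR-34a-5p, a p53 target that represses Sirt1, averaged 469.4 ± 141.2 and 761.8 ± 205.9 CPM (log2 difference 0.70 ± 0.35, edgeR adjusted p = 0.594), with overlapping ages. It was likewise named after its values were seen. miR-146a-5p, which restrains NF-kB signalling, was highest in mouse 24 at 10350 CPM and in mouse 14 at 6579 CPM, while the other 8 libraries lay between 2105 and 4917 CPM.

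The medians of the let-7 and miR-30 families were close to that of all entries of at least 100 CPM, 0.12. Of 14 tested let-7 entries, miRNAs linked to differentiation and insulin signalling, 11 had a positive and 3 a negative difference, with a median of 0.12, but with library totals alone 6 were positive and 8 negative. let-7a-5p averaged 25478 ± 4127 and 24953 ± 3973 CPM, a log2 difference of -0.03 ± 0.13. Of 10 tested miR-30 entries 9 had a positive difference, with a median of 0.13, and 4 with library totals alone. The differences of miR-30a-5p (0.06 ± 0.11), miR-30d-5p (0.06 ± 0.11) and miR-30e-5p (0.03 ± 0.12) were among those that turned negative under that scaling. The miR-17-92 and paralog clusters, known for their role in cell proliferation, had 8 higher and 6 lower of 14 tested, a median of 0.21, and miR-93-5p at 1337 ± 235 and 1657 ± 162 CPM (log2 difference 0.31 ± 0.15, edgeR adjusted p = 0.594). The median of these clusters was 0.12 with library totals alone and 0.07 with library total as a covariate. miR-93-5p had a log2 slope of 0.30 ± 0.08 per doubling of the library total outside the comparison (edgeR adjusted p = 0.0189), and its difference was 0.11 ± 0.14 with the covariate.

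Among markers of the cell types a liver preparation can hold, no list's share of counts passed the test between the ages. The endothelial list, which is mainly miR-126a-3p, held 4.83% ± 0.519 of counts at 6 months and 3.87% ± 0.670 at 14 months (exact permutation p = 0.0397, adjusted p = 0.25). Mouse 21, at 4.96%, lay within the 6-month range of 4.28% to 5.61%, and mice 22 to 25, at 3.25% to 4.06%, lay below it. Its 2 tested members differed in sign, -0.22 ± 0.16 for miR-126a-3p and 0.10 ± 0.20 for miR-126a-5p, although miR-126a-5p was also negative with library totals alone, upper quartile factors or library total as a covariate. The leukocyte list held 0.465% to 0.784% at 6 months and 0.474% to 1.08% at 14 months, and 10 of its 11 tested members had a positive difference (median 0.27, or 0.13 with library totals alone). With upper quartile factors, or with library total as a covariate, 8 of 11 were positive. The most abundant leukocyte member, miR-146a-5p, had 12623 counts in mouse 14 and 19672 in mouse 24, the libraries with the highest share at each age. The list's share thus follows this miRNA in large part. The erythroid list held 0.0216% to 0.0604% and 0.0161% to 0.0290%, with 4 of 5 tested members lower. Of these, miR-486a-5p and miR-486b-5p have the same counts in each library and are 1 observation. Its main member, miR-451a, differed by -0.52 ± 0.35.

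Stellate and smooth muscle miRNAs held 0.788% ± 0.0438 of counts at 6 months and 0.812% ± 0.0927 at 14 months, with 9 of 10 tested members positive and a median of 0.28 (7 of 10 and 0.15 with library totals alone). The 3 of 10 with an unadjusted p under 0.05 (7.67% over all tested entries) were miR-214-3p, miR-199a-3p and miR-199b-3p. The miR-199 entries have the same sequence and the same counts, 1252 ± 146 and 1521 ± 185 CPM, a log2 difference of 0.28 ± 0.13 (edgeR adjusted p = 0.594). Of 9 tested members of the biliary and other epithelium list, 3 were higher and 6 lower, and miR-200a-3p averaged 297.0 ± 21.0 and 297.8 ± 55.3 CPM. The 2 tested muscle miRNAs, miR-1a-3p and miR-206-3p, reached at most 6.76 CPM in the 10 libraries. The hepatocyte list had 11 higher and 4 lower of 15 tested, or 6 and 9 with library totals alone, and its 1 member with an unadjusted p under 0.05 was the passenger strand miR-148a-5p, at 4.72 ± 4.02 and 10.2 ± 3.74 CPM (edgeR adjusted p = 0.594), named after its values were seen. Among 5 tested neural miRNAs, miR-137-3p had log2 0.58 ± 0.34 and miR-219a-5p -0.68 ± 0.37. These became 0.07 ± 0.29 and -0.97 ± 0.39 with library total as a covariate, and outside the comparison miR-137-3p had a log2 slope of 0.53 ± 0.20 per doubling of the total (edgeR adjusted p = 0.0761).

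The imprinted Dlk1-Dio3 miRNAs were scarce at both ages. The cluster held 0.0323% ± 0.0258 of counts at 6 months and 0.0306% ± 0.0152 at 14 months. Of its 56 tested members 28 had a positive and 26 a negative difference, with a median of 0.01, or 24 and 30 with library totals alone. The largest level within it, of miR-376b-3p, ranged from 37.5 to 186.8 CPM at 6 months and from 48.0 to 162.9 CPM at 14 months. Its 1 member with an unadjusted p under 0.05 was miR-409-5p, at 0.63 ± 1.14 and 2.05 ± 0.88 CPM, near the floor and named after its values were seen. The cluster's lowest difference was -2.80, for miR-493-5p, and its highest 2.21, for miR-666-3p. Their means were at most 0.372 CPM at either age, below the floor. miR-376a-5p and miR-543-5p had no count at either age. These members were likewise named after their values were seen. In the H19, Igf2, Gnas and Mest loci 3 of 7 tested members were higher and 3 lower. miR-483-5p, hosted by Igf2, had 24 of its 25 counts at 6 months in mouse 15, so its log2 difference of -2.00 ± 1.22 turned to 2.16 without that mouse.

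miR-741-3p, from the X-linked cluster between Fmr1 and Slitrk2 (chrX:66796805-66796875), was the more abundant of the 2 tested members there. It measured 17.7, 15.9, 9.65, 7.82 and 9.61 CPM in mice 11 to 15, and 28.4, 27.6, 15.5, 17.9 and 46.7 CPM in mice 21 to 25. Mouse 25 was the highest and only mouse 23 fell within the 6-month range, with a log2 difference of 1.18 ± 0.55 (edgeR adjusted p = 0.594). miR-547-3p, the other, differed by -0.23 ± 0.58.

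**Figure D3:**
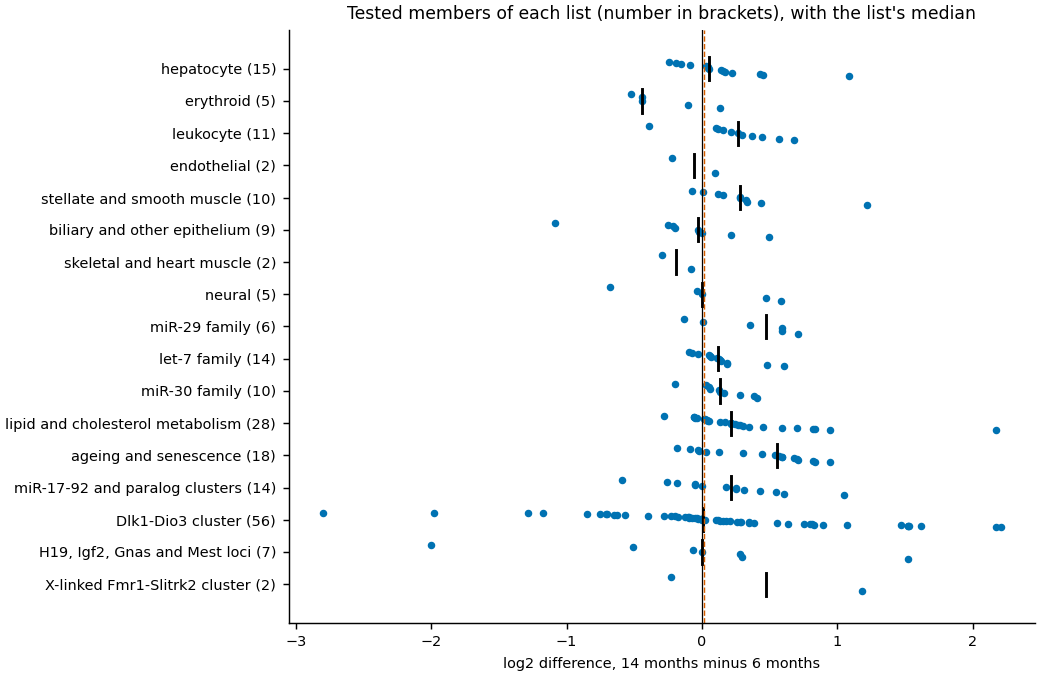
Log2 difference between 14 and 6 months (horizontal axis) for the tested members of each list (rows, number tested in brackets), with black bars at the list medians and a dashed line at the median of 0.019 over all tested entries. The ageing list, chosen with earlier results of these data known, has the highest median, 0.56. The Dlk1-Dio3 list has the widest spread, around a median of 0.01. Its lowest and highest points, miR-493-5p and miR-666-3p, had means of at most 0.372 CPM at either age.

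Depth went with how many miRNAs were detected. The libraries held 451 ± 25.2 miRNAs with at least 1 count at 6 months and 496 ± 26.6 at 14 months (exact permutation p = 0.0317, adjusted p = 0.25 over 14 values). Expected in an equal draw of 641579 counts, the numbers were 386 ± 12.1 and 385 ± 11.2 (exact permutation p = 0.889). At equal depth the means differed by -1.09 miRNAs, against 44.6 as deposited. The library totals themselves gave an exact permutation p of 0.0556 (adjusted p = 0.25), and none of the 14 values of 1 library passed after adjustment.

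The unconservative entries had a lower mean share in the deeper 14-month libraries. They held 0.109% ± 0.0556 of counts at 6 months and 0.0539% ± 0.0297 at 14 months (exact permutation p = 0.0714, adjusted p = 0.25). Their raw counts were 860 to 2202 per library at 6 months, 6990 in all, and 962 to 1559 at 14 months, 5611 in all, although the libraries of 14 months were 1.74 times as deep. Of the 52 tested, 49 had a negative and 2 a positive difference, with a median of -0.93. With library total as a covariate, 40 were negative and 12 positive, with a median of -0.29.

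**Figure D4:**
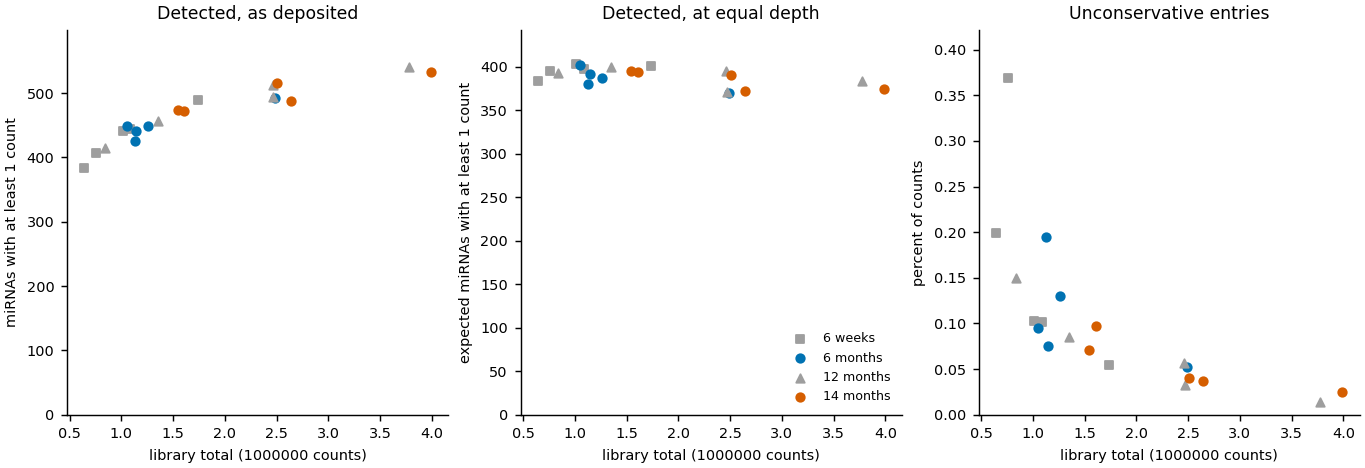
Each point is 1 library of an adult age, plotted against its total in units of 1000000 counts: miRNAs with at least 1 count (left), the number expected in 641579 counts (middle), and unconservative entries in percent of counts (right). The 14-month libraries (orange) lie to the right of 4 of 5 libraries of 6 months (blue), detection climbs with the total as deposited but not at equal depth, where several of the deepest libraries lie lowest, and the unconservative share is lowest in the deepest libraries.

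To measure dependence on depth without the 10 libraries compared, levels were fitted against log2 library total in the libraries of 6 weeks and 12 months, with age in the model. Of 230 entries tested, 17 (7.39%) had higher levels with the total and 26 (11.3%) lower levels, at an edgeR adjusted p under 0.05. Of the 26 lower entries, 14 were unconservative, of 16 such entries tested. The calls depended on single libraries: 43 in all became 9 without mouse 20, 23 without mouse 10, 27 without mouse 6 or mouse 16 and 28 without mouse 17, and scaling by totals alone gave 5 higher and 28 lower.

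Entries whose levels were lower with depth there mostly had lower means at 14 months too, where the libraries are on average deeper. Of the 26 lower entries 21 were lower at 14 months, with a median of -0.51. Among the 26 are 14 unconservative entries, a class of which 49 of 52 tested were lower at 14 months. Of the 17 higher entries 13 were higher at 14 months, with a median of 0.15, a count near that of the entries not called, of which 117 of 187 were higher, with a median of 0.06. Across the 230 entries, Pearson's r between the slope and the age difference was 0.582 and Spearman's rho 0.442. Over the 214 miRNA names r was 0.338 and rho 0.328. Over the 111 entries of at least 100 CPM r was 0.608 and rho 0.365. Entries of 1 library share its total and its scaling, so these r values describe the libraries. Among the abundant miRNAs, miR-122-5p had a slope of 0.03 ± 0.06, let-7g-5p one of 0.36 ± 0.07 (edgeR adjusted p = 0.00514) and miR-130a-3p, which averaged 507.8 ± 14.1 and 659.5 ± 135.2 CPM, one of 0.47 ± 0.11 (edgeR adjusted p = 0.016). With library total as a covariate, the difference of miR-130a-3p between 14 and 6 months was 0.11 ± 0.20, against 0.38 ± 0.21 without it.

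**Figure D5:**
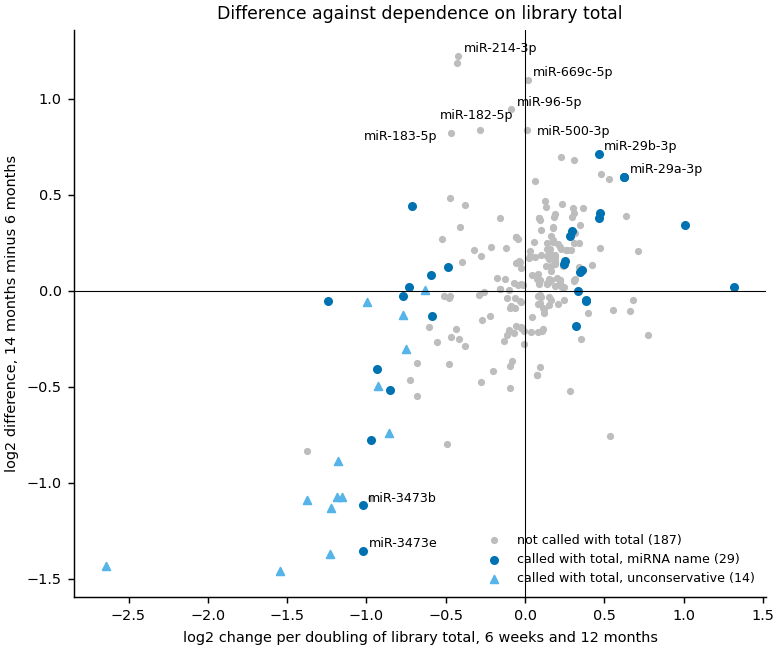
Log2 difference between 14 and 6 months (vertical axis) against the log2 change per doubling of library total in the 10 libraries of 6 weeks and 12 months (horizontal axis), for 230 entries. miR-29a-3p and miR-29b-3p lie to the upper right and miR-3473b and miR-3473e to the lower left, with the entries called for depth. miR-182-5p, miR-183-5p and miR-214-3p have higher levels at 14 months and negative slopes that were not called.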

How the data were processed

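Small RNA of liver vesicles was counted per miRNA, and the authors deposited 1 table of raw counts for all 25 libraries; per the submitters' processing notes Bowtie, edgeR and mm10 were used, without versions. The miRNA annotation, and whether molecular identifiers were used to collapse reads, are not given in the sources used here, so floors cover counting error only. The members, the lists and the rule for named miRNAs were chosen with earlier results of these data known.

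Columns were matched to mice by the numbers in the titles. Counts were fitted with edgeR 4.0.16 in R 4.3.3: filterByExpr by age, TMM factors (0.719 to 1.08 in the 10 libraries), a robust quasi-likelihood model of all 25 libraries, the contrast 14 months minus 6 months, and Benjamini-Hochberg adjustment over the 391 tested entries, with a threshold of 0.05. The model of the 5 ages shares 1 estimate of the spread (biological coefficient of variation 37.6%). Total counts of the compared libraries ran from 1052751 to 3989776. DESeq2 1.42.0 was an alternative. Values of 1 library (14 of them) were compared by exact two-sided permutation over the 252 ways to divide 10 libraries, with a smallest possible p of 0.00794.

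Named were the 5 most abundant miRNAs, up to 4 of the most abundant tested members of each list, the 10 entries with the smallest p, and the 5 with the smallest p in each direction in the fit on library total. Mature sequences were matched by name to RefSeq (293 of 339 tested names) and precursors to the GRCm38.p6 annotation. miR-383-5p and miR-669c-5p are named only. Some list members, such as let-7a-1-3p and let-7c-2-3p, have the same or nearly the same counts. Tallies over list members therefore count some observations more than once.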

Additional observations from a re-analysis of the deposited data

Results flagged for a closer look

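A library was singled out when its gap to the nearest of the 5 libraries of its age exceeded 0.71 of their range (Dixon's 95% criterion). Of 180 groups of 5 libraries checked, 17 met it, and chance gives about 1 in 20 where values are normally distributed. Some groups hold few counts, and a group with 4 libraries at 0 and 1 above 0 always meets it, as for miR-296-3p. The 17 is therefore no measure of an excess. Mouse 14 stood apart at 6 months in 3 measures: its library total of 2485335 counts, against 1052751 to 1258885 in the other 4, its leukocyte share of 0.784% of counts, against 0.465% to 0.532%, and its miR-146a-5p level of 6579 CPM, against 2105 to 2988 CPM. miR-146a-5p is the most abundant member of the leukocyte list, with 12623 counts in mouse 14, so that share and this level are not separate observations. Without mouse 14 the log2 difference of miR-146a-5p between 14 and 6 months was 1.06, against 0.57 with mouse 14.

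Single libraries also stood apart for scarce or imprinted miRNAs. At 6 months, mouse 13 held 186.8 CPM of miR-376b-3p and 119.3 CPM of miR-411-5p, both from the Dlk1-Dio3 cluster, against 37.5 to 77.8 CPM and 17.7 to 40.3 CPM in the other 4. Mouse 15 held 23.1 CPM of miR-483-5p at 6 months, and mouse 25 held 3.04 CPM at 14 months, against at most 0.982 and 0.727 CPM in the rest of each age. For miR-296-3p, mouse 13 (0.877 CPM) and mouse 22 (1.45 CPM) were the only ones of the 10 compared libraries with a count, 1 and 2 counts. Mouse 25 had the lowest miR-335-3p level at 14 months, 0.676 CPM, against 2.11 to 2.24 CPM. In counts this is 2 against 3 to 5, a gap of few counts near the floor.

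Among the miRNAs described for their difference with age or depth, miR-3473e stood at 24.2 CPM in mouse 12, against 7.89 to 11.8 CPM in the other libraries of 6 months. miR-30c-5p stood at 2354 CPM in mouse 15 at 6 months and at 3691 CPM in mouse 25 at 14 months. miR-3065-5p stood at 17.9 CPM in mouse 25, against 12.4 to 13.8 CPM. miR-3470b stood at 47.2 CPM in mouse 11 at 6 months and at 24.7 CPM in mouse 21 at 14 months, against 15.6 to 23.3 CPM and 10.8 to 13.8 CPM. miR-547-3p stood at 8.84 CPM in mouse 11, against 3.51 to 4.80 CPM.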

How the results depend on the processing

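The count of 0 called entries was also 0 under 19 of 21 alternatives, including other size factors, other filters, DESeq2, thinning and leaving out each mouse, and was 1 (miR-182-5p) with log2 library total as a covariate in all 25 and in the 20 adult libraries. The difference in detected miRNAs turned from 44.6 to -1.09 in an equal draw. The fit on library total called 43 entries, and 9 to 52 with 1 mouse left out. No paired analysis was possible because each mouse number occurs at 1 age only. The alternative within a shared range of library totals was not run, since it left only mouse 14 at 6 months.

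Of 1540 values of the named entries under alternatives, 158 had the other sign and 84 moved by over 1 SE; 13 and 17 changed sign with log2 library total as a covariate in all 25 and in the 20 adult libraries. The values given next both changed sign and moved by over 1 SE. With the covariate in all 25 libraries they were -0.13 for miR-126a-5p, -0.057 for miR-145a-5p, -0.13 for let-7c-5p and 0.42 for unconservative_14_3054940. In the 20 adult libraries with the covariate they were -0.0024 for miR-26b-5p, -0.22 for miR-144-3p, -0.24 for miR-126a-5p, -0.052 for miR-145a-5p, 0.074 for miR-200b-3p, -0.13 for let-7c-5p, -0.18 for let-7g-5p and -0.80 for miR-136-3p. With library totals alone and upper quartile factors they were -0.088 and -0.093 for miR-194-5p, -0.083 and -0.088 for miR-30a-5p, -0.11 and -0.11 for miR-30e-5p, and -0.074 and -0.081 for miR-30d-5p. With 1 mouse left out, log2 differences ranged from -0.087 to 0.13 for let-7a-5p and from -0.12 to 0.081 for let-7f-5p (the highest of each without mouse 14), from -0.35 to 0.64 for miR-411-5p (highest without mouse 13), from -3.63 to 2.16 for miR-483-5p (highest without mouse 15) and from -2.00 to 2.30 for miR-296-3p (lowest without mouse 22). The cause of these shifts was not tested.

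Below 100 CPM, 218 of 276 intervals reach a 2-fold difference, and the parts of depth and of spread between mice in their width were not tested.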
